A study of Mus musculus with 6 samples.

Results

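The 30 genes described here make up the cholesterol and fatty acid synthesis module of mouse embryonic stem (ES) cells. They were chosen by name, with earlier results of these data known, and all 30 were found among the 19532 gene rows of the deposited table. The sterol branch holds 18 of them, the fatty acid branch holds 8, and the remaining 4 are regulators or transport genes. Cholesterol is built from acetyl-CoA through mevalonate, isoprenoid diphosphates, squalene and lanosterol. Fatty acids are built from the same acetyl-CoA through malonyl-CoA, and are then elongated and desaturated. Both branches are under the control of the SREBP transcription factors, which are held in the endoplasmic reticulum by INSIG proteins when sterols are plentiful and are cut free when sterols run low. SREBP2, the product of Srebf2, is best known for the sterol branch, and SREBP1, the product of Srebf1, for the fatty acid branch.

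Single cells of the established mouse ES cell lines R1 and IB10 were sorted into plates and sequenced by SORT-seq. This CEL-Seq2 method reads transcripts at their 3′ end and counts them by molecular identifiers (UMIs). The conditions differed in what was added to the medium. LIF is in the name of LIF_2i, and whether primed_4d cells were also kept with LIF is not stated here. Primed_4d cells were grown for 4 days with 2 µM IWP2 (a blocker of WNT secretion), Activin A at 20 ng/ml and FGF2 at 12 ng/ml. Rosette_LIM cells had 2 µM IWP2 and 0.1 µM of the MEK inhibitor PD325901, for 6 passages in R1 and 5 in IB10. LIF_2i cells had 0.1 µM PD325901 and 3 µM of the GSK3 inhibitor CHIR99021. Primed_4d and LIF_2i cells were collected at passage 24 (R1) and 28 (IB10), and rosette_LIM cells at passage 28 (R1) and 33 (IB10), so rosette culture and passage number cannot be told apart. Each line gave 1 library per condition, so every condition had n = 2 libraries and the study 6. Nothing in the labels says that a culture was repeated within a line, so p-values cover only the spread between libraries, part of which may be technical.

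The libraries held 4614580 to 7688723 gene UMIs. The median well held 11250 UMIs in the R1 primed_4d library, where 84 of 188 wells had under 6000, against 26868 to 40975 in the other libraries, where 4 to 38 wells did. The naive markers (Klf4, Esrrb, Tfcp2l1, Tbx3, Zfp42 and Nr0b1) summed to 261 to 377 CPM (UMI counts scaled to the library total) in primed_4d, 2305 to 2485 CPM in rosette_LIM and 2470 to 2696 CPM in LIF_2i. The primed markers Fgf5, Pou3f1, Dnmt3b and Otx2 summed to 1118 to 1137 CPM in primed_4d, 54.7 to 80.3 CPM in rosette_LIM and 82.8 to 96.9 CPM in LIF_2i. Dnmt3b made up most of that sum and was lower in rosette_LIM than in LIF_2i, whereas Otx2 (13.4 and 15.2 CPM in rosette_LIM, 1.71 and 3.84 CPM in LIF_2i) and Pou3f1 were higher in rosette_LIM. Of other cell types, the 5 primitive endoderm markers summed to 3.59 to 7.12 CPM, the 4 trophectoderm markers to 8.58 to 15.4 CPM and the 3 markers of 2-cell-like cells to 1.04 to 20.7 CPM over all libraries, with Elf5 at 0 in 4 libraries, Cdx2 at 0 in 2 and Usp17lc at 0 in all. The 4 fibroblast markers summed to 160 to 197 CPM in primed_4d, 285 to 313 CPM in rosette_LIM and 240 to 241 CPM in LIF_2i, nearly all of it Vim, with Col1a1 at 0.946 to 2.30 CPM and Thy1 at 1.95 to 10.2 CPM over all libraries and Col1a2 at 0 in all rosette_LIM and LIF_2i libraries. Their part in the results below was not tested. In sums over wells, fewer cells that use a gene and less of its RNA per cell cannot be told apart.

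In CPM the sterol branch stood higher in primed_4d and rosette_LIM than in LIF_2i, and the fatty acid branch did not. The 18 sterol genes together took 3035 CPM (R1) and 3019 CPM (IB10) in primed_4d, 3141 and 3181 CPM in rosette_LIM, and 2009 and 1970 CPM in LIF_2i. The 8 fatty acid genes together took 1648 CPM (R1) and 1559 CPM (IB10) in primed_4d, 1999 and 1946 CPM in rosette_LIM, and 2044 and 1934 CPM in LIF_2i. The sterol sums of primed_4d and of rosette_LIM lay above those of LIF_2i in both lines without overlap, whereas the fatty acid sums of rosette_LIM and LIF_2i overlapped and those of primed_4d were the lowest.

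Sterol over fatty acid counts gave a ratio of 1.89 ± 0.07 in primed_4d, 1.60 ± 0.04 in rosette_LIM and 1.00 ± 0.03 in LIF_2i (SD, n = 2 each). This ratio is taken within each library and is the same under every scaling between libraries. It was given no test, because the genes were grouped with earlier results known, and 2 libraries against 2 could not give an exact permutation p under 0.333. The sums weigh each gene by its level, so Hmgcs1, Fdps, Fdft1 and Sc4mol (the methyl sterol oxidase named Msmo1 in current annotation) weigh heavily in the sterol branch, and Scd2 in the fatty acid branch.

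**Figure D1:**
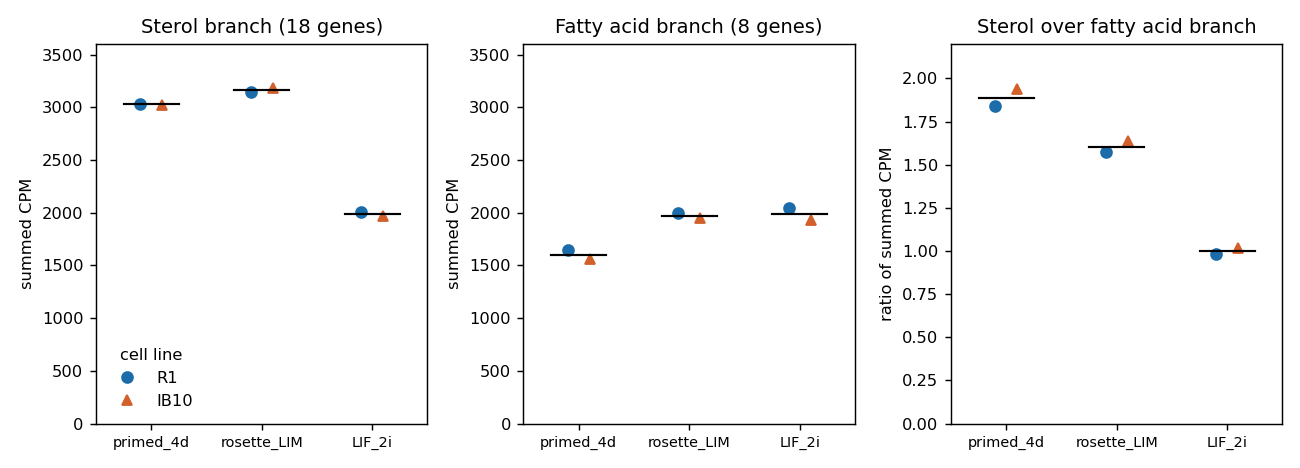
Summed level of the 18 sterol genes and of the 8 fatty acid genes (CPM), and the ratio of the sums, in the R1 and IB10 libraries of primed_4d, rosette_LIM and LIF_2i. The ratio lies between 1.84 and 1.94 in primed_4d, between 1.57 and 1.64 in rosette_LIM and between 0.98 and 1.02 in LIF_2i.

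Hmgcs1 and Nsdhl were sterol genes higher in primed_4d and rosette_LIM than in LIF_2i. Ebp was the sterol gene that was lower, and Fasn the fatty acid gene whose lines disagreed in all 3 comparisons. The upstream sequences of these 4 members are shown because they mark the patterns that follow. Each is the 250 bases before the start of the gene, 5′ to 3′ on the gene's own strand, from RefSeq on GRCm38.p6. Capitals mark a CCAAT box on either strand (CCAAT or ATTGG) and, in Hmgcs1, a sterol regulatory element (TCACNCCAC). Hmgcs1 lies at chr13:119690101-119690350 (+), Nsdhl at chrX:72918271-72918520 (+), Ebp at chrX:8193513-8193762 (-) and Fasn at chr11:120824548-120824797 (-).
Hmgcs1: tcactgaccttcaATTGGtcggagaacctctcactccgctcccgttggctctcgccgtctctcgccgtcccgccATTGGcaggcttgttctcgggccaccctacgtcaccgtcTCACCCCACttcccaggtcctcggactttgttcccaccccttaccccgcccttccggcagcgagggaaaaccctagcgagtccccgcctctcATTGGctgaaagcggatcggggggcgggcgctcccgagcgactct
Nsdhl: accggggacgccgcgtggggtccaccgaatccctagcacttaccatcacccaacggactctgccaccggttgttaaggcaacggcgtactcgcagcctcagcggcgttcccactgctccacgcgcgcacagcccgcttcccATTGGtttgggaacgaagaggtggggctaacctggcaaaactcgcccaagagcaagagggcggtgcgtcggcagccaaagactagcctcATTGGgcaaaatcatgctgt
Ebp: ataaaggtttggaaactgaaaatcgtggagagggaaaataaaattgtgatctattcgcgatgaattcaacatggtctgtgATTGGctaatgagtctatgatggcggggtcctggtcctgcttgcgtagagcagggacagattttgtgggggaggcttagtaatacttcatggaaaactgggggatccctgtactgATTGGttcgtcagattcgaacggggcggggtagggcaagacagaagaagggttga
Fasn: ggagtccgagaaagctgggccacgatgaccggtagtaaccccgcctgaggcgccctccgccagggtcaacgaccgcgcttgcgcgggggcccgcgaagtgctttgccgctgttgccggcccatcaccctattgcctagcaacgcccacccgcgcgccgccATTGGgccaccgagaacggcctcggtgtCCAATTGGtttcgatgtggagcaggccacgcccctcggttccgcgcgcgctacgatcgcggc

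Promoter sequences of 250 bases before to 50 bases after the start were matched for 23 of the 30 members, namely 15 sterol genes, 5 fatty acid genes and 3 regulators. The remaining 7 members are Fdps, Fdft1, Sqle, Scd1, Scd2, Fads1 and Stard4. A CCAAT box (CCAAT, both strands), the site of the factor NF-Y that acts beside SREBP, was found in 14 of 15 sterol promoters (every one but Acat2), in 2 of 5 fatty acid promoters (Acly and Fasn) and in 3 of 3 regulator promoters. Over all 32851 promoters of 300 bases it was found in 37.4%, and over the 9026 tested genes with a promoter in 43.6%. The GC box (GGGCGG, both strands) was found in 14 of 15 sterol promoters, 2 of 5 fatty acid promoters and 3 of 3 regulator promoters, against 35.7% of all promoters and 70.4% of tested genes.

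The sterol regulatory element in the spelling TCACNCCAC (both strands) was found in Hmgcs1 alone, starting 137 bases before the gene start, against 1.24% of all promoters and 1.44% of tested genes. The E-box CACGTG was found in 3 of 15 sterol promoters (Hsd17b7, Sc5d and Dhcr7), 0 of 5 fatty acid promoters and 1 of 3 regulator promoters (Insig1), against 7.15% and 12.1%. A gene with several starts was counted as holding a motif if any start did. Dhcr7 held a CCAAT box only at the most downstream of its starts (chr7:143829964-143830263). The only Acaca promoter matched (chr11:84195188-84195487) lies inside the gene (84129672 to 84401651), so the sequence at its upstream end was not searched. Ebp holds both a CCAAT box and a GC box. A match is a description of the sequence and not a binding site.

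In rosette_LIM against LIF_2i, 14 of 18 sterol genes were higher, 1 was lower and 3 did not pass the test (edgeR quasi-likelihood test, Benjamini-Hochberg adjusted p under 0.05 over 12098 genes). Over all genes tested, 3.18% were called higher and 2.34% lower, 5.52% in either direction. The median log2 fold change was 0.75 in the sterol branch and -0.06 in the fatty acid branch, beside 0.00 over all genes. In the fatty acid branch 0 of 8 genes passed in edgeR, DESeq2 or limma, and 2 (Acly and Elovl6) had an unadjusted p under 0.05 in edgeR. All 7 genes of the mevalonate and isoprenoid steps were higher. Among the 11 genes of the steps after them, 7 were higher, Ebp was lower, and Cyp51, Tm7sf2 and Sc5d did not pass. By line, 17 of 18 sterol genes were above 0 in both R1 and IB10. In the fit of both lines together 50.3% of all genes were above 0, and their share by line is not given here.

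These calls depended on the LIF_2i libraries. Without the R1 LIF_2i library 0 sterol genes were called higher, and without the IB10 LIF_2i library 2 were (Fdps and Sc4mol), while the range over leaving out any other library was 10 to 15. The sterol median stayed between 0.55 and 0.74 over all 6 omissions. Scaled to the ERCC spike-ins in place of the gene counts, the median of all genes shifted to -0.55, the sterol median to 0.20 and the fatty acid median to -0.62, and 0 sterol genes were called higher. With cell line left out of the model, 9 sterol genes were called higher and 0 lower, and DESeq2 did not call Pmvk, Dhcr7 or Ebp.

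Acat2, the thiolase that makes acetoacetyl-CoA, had a log2 fold change of 0.56 ± 0.12 (SE, edgeR adjusted p = 0.0127). Hmgcs1, the HMG-CoA synthase, had 529 and 558 CPM in the R1 and IB10 rosette_LIM libraries, against 317 and 326 CPM in LIF_2i, a log2 fold change of 0.76 ± 0.10 (edgeR adjusted p = 0.000461). Its 2 rosette_LIM values lay well above both LIF_2i values.

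Mvk, the mevalonate kinase, had 44.5 CPM (R1) and 70.8 CPM (IB10) in rosette_LIM, against 28.7 and 29.8 CPM in LIF_2i. The groups did not overlap, and IB10 was the higher rosette_LIM library (log2 fold change 0.96 ± 0.18, edgeR adjusted p = 0.00622). Pmvk, the phosphomevalonate kinase, had 56.6 and 65.7 CPM in rosette_LIM, against 32.8 and 39 CPM in LIF_2i (0.76 ± 0.19, edgeR adjusted p = 0.0327). Mvd, the decarboxylase that makes isopentenyl diphosphate, had 75.9 and 67.6 CPM in rosette_LIM, against 48.7 and 36.4 CPM in LIF_2i (0.77 ± 0.16, edgeR adjusted p = 0.00931). Neither gene's groups overlapped. Idi1, which interconverts the isoprenoid building blocks, had a log2 fold change of 0.59 ± 0.13 (edgeR adjusted p = 0.0128). Fdps, the farnesyl diphosphate synthase, had 401 and 412 CPM in rosette_LIM, against 238 and 221 CPM in LIF_2i (0.83 ± 0.11, edgeR adjusted p = 0.000546).

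Fdft1, the squalene synthase that commits farnesyl diphosphate to sterols, had 377 and 394 CPM in rosette_LIM, against 228 and 235 CPM in LIF_2i (log2 fold change 0.74 ± 0.12, edgeR adjusted p = 0.00172). Sqle, the squalene epoxidase, had a log2 fold change of 0.53 ± 0.12 (edgeR adjusted p = 0.0186). Lss, the lanosterol synthase, had 117 and 134 CPM in rosette_LIM, against 70.7 and 71.9 CPM in LIF_2i (0.81 ± 0.12, edgeR adjusted p = 0.00103). Each of these genes was higher in both lines.

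The genes that strip methyl groups from lanosterol followed. Sc4mol had 436 CPM (R1) and 325 CPM (IB10) in rosette_LIM, against 225 and 193 CPM in LIF_2i (log2 fold change 0.86 ± 0.12, edgeR adjusted p = 0.000546). Nsdhl, the decarboxylating dehydrogenase, had 69.1 and 76.4 CPM in rosette_LIM, against 42.1 and 42.4 CPM in LIF_2i (0.78 ± 0.13, edgeR adjusted p = 0.00306). Hsd17b7, the keto reductase, had 35.3 and 29.4 CPM in rosette_LIM, against 16.1 and 17.7 CPM in LIF_2i (0.93 ± 0.18, edgeR adjusted p = 0.00634). All 3 were higher in both lines. Cyp51, the lanosterol demethylase, had 0.38 ± 0.12 (edgeR adjusted p = 0.0754) and Tm7sf2, a sterol reductase, had 0.20 ± 0.15 (edgeR adjusted p = 0.504).

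Ebp, the sterol isomerase late in the pathway, went the other way. It had 50.2 and 48 CPM in rosette_LIM, against 63.4 and 78.6 CPM in LIF_2i (log2 fold change -0.53 ± 0.14, edgeR adjusted p = 0.0442). The groups did not overlap, and the call was lost in DESeq2, in limma on log2(CPM + 5), without cell line in the model and without either LIF_2i library or the IB10 rosette_LIM library. Sc5d, the desaturase that acts on Ebp's product, had 0.25 ± 0.16 (edgeR adjusted p = 0.446), and Dhcr7, the reductase of the last step, had 0.47 ± 0.12 (edgeR adjusted p = 0.0338).

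In primed_4d against LIF_2i, 14 of 18 sterol genes were again higher, 1 was lower and 3 did not pass, where 18.3% of all genes were called higher and 19.6% lower, 37.9% in either direction. This comparison shares its LIF_2i libraries with the one before, so the likeness of the counts is not independent. The sterol median was 0.58 and the fatty acid median -0.26, beside -0.01 over all genes. The genes that did not pass were Acat2, Mvk and Fdft1. Scaled to the spike-ins, the median of all genes was -0.56, that of the sterol branch 0.034 and that of the fatty acid branch -0.81, and 0 sterol genes were called higher. Leaving out either LIF_2i library left 9 sterol genes higher, and the sterol genes called in all 6 omissions were Hmgcs1, Mvd, Fdps, Lss, Cyp51, Sc4mol, Nsdhl and Dhcr7, all higher, and Ebp, lower. Of the other calls, Pmvk did not pass without the R1 LIF_2i library (log2 fold change down to 0.53 over the omissions) nor Sqle without the IB10 LIF_2i library (down to 0.45), and Idi1 (down to 0.29), Tm7sf2 (0.39), Hsd17b7 (0.45) and Sc5d (0.55) did not pass without either of them. Tm7sf2, Hsd17b7 and Sc5d were also lost without the R1 primed_4d library and in DESeq2, and Idi1 and Hsd17b7 without the IB10 primed_4d library.

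Ebp, at chrX:8185329-8193512 on the minus strand (GRCm38), had 23.9 and 25.7 CPM in primed_4d, against 63.4 and 78.6 CPM in LIF_2i. This was a log2 fold change of -1.51 ± 0.15 (edgeR adjusted p = 2.80e-06), the largest in either direction among the members. Genes of chromosome X had a median of 0.12 in this comparison and -0.02 in rosette_LIM against LIF_2i. Any part of the chromosome in the change of Ebp was not tested. Lss had 174 and 171 CPM in primed_4d, against 70.7 and 71.9 CPM in LIF_2i (1.27 ± 0.12, edgeR adjusted p = 1.20e-06). Fdps had 550 CPM (R1) and 440 CPM (IB10) in primed_4d, against 238 and 221 CPM in LIF_2i (1.11 ± 0.11, edgeR adjusted p = 2.85e-06). In both genes the primed_4d values lay far above those of LIF_2i.

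Pmvk had 89.7 CPM (R1) and 56 CPM (IB10) in primed_4d, against 32.8 and 39 CPM in LIF_2i (log2 fold change 1.00 ± 0.19, edgeR adjusted p = 0.000921). Mvd had 96.1 CPM (R1) and 55.2 CPM (IB10) in primed_4d, against 48.7 and 36.4 CPM in LIF_2i (0.81 ± 0.16, edgeR adjusted p = 0.000902). R1 was the higher primed_4d library for both genes, and neither gene's groups overlapped. Mvd and Sc4mol lie on chromosome 8, which took 5.43% to 5.74% of the counts in R1 libraries and 4.40% to 4.46% in IB10 libraries. The median of its genes was -0.01 in rosette_LIM against LIF_2i and 0.01 in primed_4d against LIF_2i.

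Nsdhl had 74.5 and 70.4 CPM in primed_4d, against 42.1 and 42.4 CPM in LIF_2i (log2 fold change 0.78 ± 0.13, edgeR adjusted p = 0.000370). Cyp51 had 184 and 210 CPM in primed_4d, against 124 and 120 CPM in LIF_2i (0.69 ± 0.12, edgeR adjusted p = 0.000329). Both genes were higher in each line. Sc4mol had 0.69 ± 0.12 (edgeR adjusted p = 0.000309), Dhcr7 had 0.67 ± 0.12 (edgeR adjusted p = 0.000571) and Hmgcs1 had 0.56 ± 0.10 (edgeR adjusted p = 0.000535). The other sterol genes called higher were Sc5d (0.59), Hsd17b7 (0.57), Sqle (0.57), Idi1 (0.51) and Tm7sf2 (0.47), as log2 fold changes with edgeR adjusted p between 0.00209 and 0.0233. Of those that did not pass, Mvk had 0.48 ± 0.19 (edgeR adjusted p = 0.0542), Acat2 0.29 ± 0.12 (edgeR adjusted p = 0.0678) and Fdft1 0.09 ± 0.12 (edgeR adjusted p = 0.575).

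**Figure D2:**
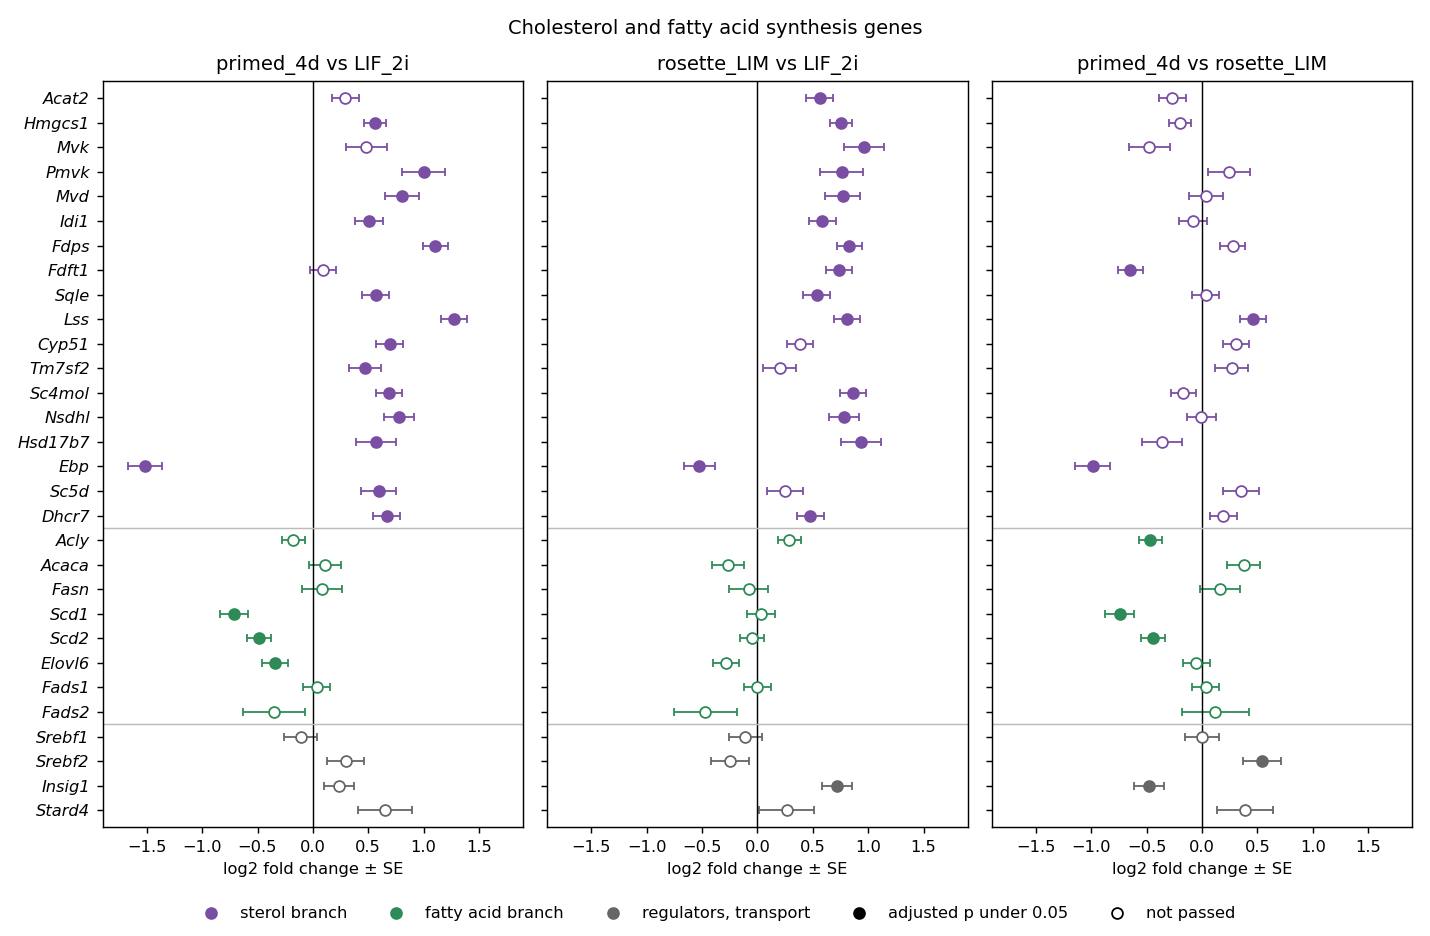
Log2 fold change of each of the 30 members in the 3 comparisons, with bars of 1 standard error from edgeR and filled points for adjusted p under 0.05. In both comparisons with LIF_2i the sterol genes lie above 0 apart from Ebp (-1.51 in primed_4d, -0.53 in rosette_LIM), and the fatty acid genes lie near or below it.

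In the fatty acid branch, primed_4d against LIF_2i gave 0 of 8 genes higher and 3 lower, beside 18.3% and 19.6% over all genes. Scd1, a desaturase that makes monounsaturated fatty acids, had 110 and 97.4 CPM in primed_4d, against 154 and 185 CPM in LIF_2i (log2 fold change -0.71 ± 0.13, edgeR adjusted p = 0.000515). Scd2, a related desaturase gene also on chromosome 19, had 587 and 658 CPM in primed_4d, against 925 and 826 CPM in LIF_2i (-0.49 ± 0.11, edgeR adjusted p = 0.00268). Elovl6, an elongase, had 168 and 183 CPM in primed_4d, against 242 and 204 CPM in LIF_2i (-0.34 ± 0.12, edgeR adjusted p = 0.0339). None of these 3 genes had overlapping groups, but neither did Acly and Fads2, which did not pass. The calls of these 3 also depended on single libraries. Scd1 was not called without the IB10 LIF_2i library, Scd2 without the R1 LIF_2i or the R1 primed_4d library, and Elovl6 without either LIF_2i library or the R1 primed_4d library, and over the omissions their changes came as near to 0 as -0.51, -0.32 and -0.20. The call of Elovl6 was also lost in DESeq2 and with cell line left out of the model. Scd1 and Scd2 are similar in sequence, and reads of one can be counted to the other.

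The genes that supply and build palmitate did not pass in either comparison with LIF_2i. Acly, which makes cytosolic acetyl-CoA for both branches, had 303 and 298 CPM in primed_4d, 401 and 429 CPM in rosette_LIM and 324 and 356 CPM in LIF_2i. It was highest in rosette_LIM, with a log2 fold change over LIF_2i of 0.29 ± 0.10 (edgeR adjusted p = 0.129). Acaca, the acetyl-CoA carboxylase, had 74.3 and 58.6 CPM in primed_4d, 48.1 and 54.2 CPM in rosette_LIM and 60.2 and 62.6 CPM in LIF_2i. Fasn, the fatty acid synthase, had 295 CPM (R1) and 173 CPM (IB10) in primed_4d, 180 and 229 CPM in rosette_LIM and 229 and 208 CPM in LIF_2i, so the lines ordered the conditions differently. Among the desaturases of polyunsaturated fatty acids, Fads1 had log2 fold changes of 0.03 in primed_4d and -0.00 in rosette_LIM over LIF_2i, and Fads2 lay between 5.26 and 10.1 CPM in every library.

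Directly between primed_4d and rosette_LIM, 1 sterol gene was higher and 2 were lower, where 17.1% of all genes were called higher and 19.0% lower, 36.1% in either direction. The sterol median was 0.01 and the fatty acid median -0.01, beside -0.00 over all genes. By line, the sterol median was 0.13 in R1 and -0.13 in IB10 and the fatty acid median -0.14 in R1 and -0.16 in IB10, so the sterol median had no common sign. Lss was the sterol gene that was higher, with 174 and 171 CPM in primed_4d, against 117 and 134 CPM in rosette_LIM (log2 fold change 0.46 ± 0.12, edgeR adjusted p = 0.00645). Fdft1 had 213 and 282 CPM in primed_4d, against 377 and 394 CPM in rosette_LIM (-0.65 ± 0.12, edgeR adjusted p = 0.000549). Fdft1 was therefore near its LIF_2i level of 228 and 235 CPM in primed_4d. Ebp had 23.9 and 25.7 CPM in primed_4d, against 50.2 and 48 CPM in rosette_LIM (-0.99 ± 0.16, edgeR adjusted p = 0.000225). Ebp was thus lowest in primed_4d, between the other groups in rosette_LIM and highest in LIF_2i, and every neighbouring pair in that order passed the test.

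In the fatty acid branch 3 of 8 genes were lower in primed_4d than in rosette_LIM and 0 were higher, beside 19.0% and 17.1% over all genes. Scd1 had 110 and 97.4 CPM in primed_4d, against 180 and 168 CPM in rosette_LIM (log2 fold change -0.74 ± 0.13, edgeR adjusted p = 0.000409). Acly, with the values given above, had -0.47 ± 0.10 (edgeR adjusted p = 0.00280). Scd2 had 587 and 658 CPM in primed_4d, against 902 and 792 CPM in rosette_LIM (-0.44 ± 0.11, edgeR adjusted p = 0.00571). Scd1 and Scd2 were thus lower in primed_4d than in both other conditions. Leaving out the R1 primed_4d library ended the calls of Lss and Scd2, and leaving out the R1 rosette_LIM library that of Lss, with log2 fold changes over the omissions of 0.36 to 0.57 for Lss and -0.61 to -0.27 for Scd2.

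**Figure D3:**
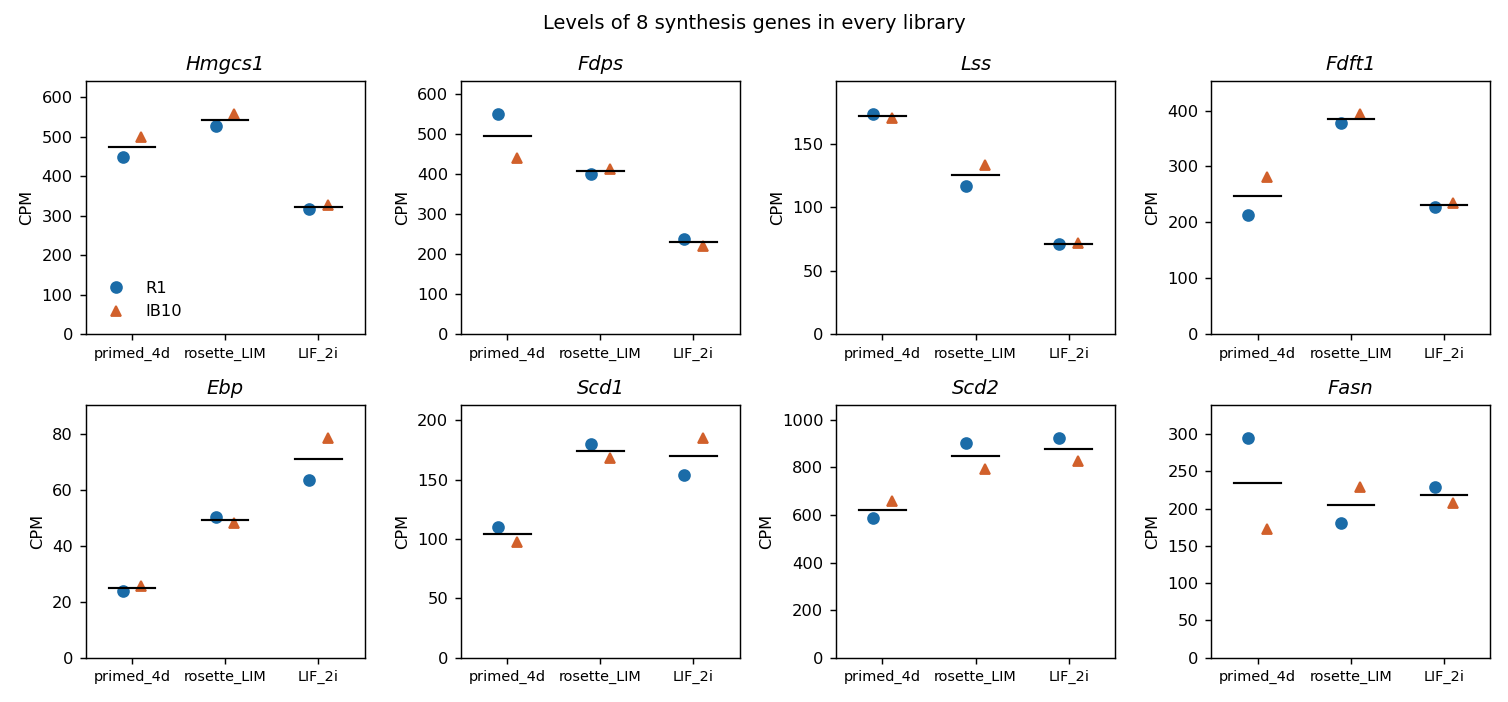
Level of selected members (CPM) in the R1 and IB10 libraries of primed_4d, rosette_LIM and LIF_2i, with a line at the mean of the 2 libraries. Lss is stepwise higher in rosette_LIM and primed_4d than in LIF_2i, Ebp is stepwise lower, and Fasn is split by line in primed_4d (295 CPM in R1 and 173 CPM in IB10).

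Of the 4 regulators and transport genes, 1 was higher in rosette_LIM than in LIF_2i, beside 3.18% over all genes, and 1 was higher and 1 lower in primed_4d than in rosette_LIM, beside 17.1% and 19.0%. In primed_4d against LIF_2i 0 passed in edgeR, DESeq2 or limma, beside 37.9% of all genes called in edgeR. Of the 4, 1 (Stard4) had an unadjusted p under 0.05 in edgeR. Srebf2 had 42.3 and 46.2 CPM in primed_4d, 35.6 and 25.7 CPM in rosette_LIM and 40.3 and 32.5 CPM in LIF_2i. It passed only in primed_4d against rosette_LIM (log2 fold change 0.54 ± 0.17, edgeR adjusted p = 0.0239), a call that was lost without cell line in the model, in DESeq2, with spike-in scaling, and without either LIF_2i library, the IB10 rosette_LIM library or the IB10 primed_4d library. Srebf1 had 77.9 and 59.2 CPM in primed_4d, 63 and 73.1 CPM in rosette_LIM and 79.8 and 67.8 CPM in LIF_2i, and all 3 groups overlapped. These are transcript levels, and SREBP activity is set by cleavage of the protein, which was not measured here.

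Insig1, itself a sterol-regulated gene in mammals, had 109 CPM (R1) and 152 CPM (IB10) in primed_4d, 186 and 175 CPM in rosette_LIM and 107 and 113 CPM in LIF_2i. Rosette_LIM stood above both other conditions. The log2 fold change over LIF_2i was 0.72 ± 0.13 in rosette_LIM (edgeR adjusted p = 0.00523) and 0.24 ± 0.14 in primed_4d (edgeR adjusted p = 0.183), and that of primed_4d over rosette_LIM was -0.48 ± 0.13 (edgeR adjusted p = 0.0120). Stard4, a cytosolic cholesterol carrier, had 14.5 CPM (R1) and 30.8 CPM (IB10) in primed_4d, 16.2 and 17.7 CPM in rosette_LIM and 14.4 and 13.8 CPM in LIF_2i. Its primed_4d change over LIF_2i was 0.65 ± 0.25 (edgeR adjusted p = 0.0507), just outside the threshold, and rests mainly on IB10.

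Among other enzymes of sterol and isoprenoid synthesis, Lbr and Ggps1 were followed. Lbr, a sterol reductase of the inner nuclear membrane, had 225 and 221 CPM in primed_4d, 184 and 204 CPM in rosette_LIM and 175 and 155 CPM in LIF_2i. It was higher in primed_4d than in LIF_2i (log2 fold change 0.44 ± 0.11, edgeR adjusted p = 0.00766), as was Ggps1, the geranylgeranyl diphosphate synthase (0.56 ± 0.18, edgeR adjusted p = 0.0251). In rosette_LIM against LIF_2i neither gene passed in edgeR, DESeq2 or limma, with log2 fold changes of 0.24 for Lbr and 0.10 for Ggps1.

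Of 6 genes of SREBP control and lysosomal sterol release, 1 was lower in rosette_LIM and 1 was lower in primed_4d, each against LIF_2i, and none was called higher in either. Over all genes 2.34% were lower in rosette_LIM and 19.6% in primed_4d, so the count in primed_4d was near the background. Between primed_4d and rosette_LIM 2 of 6 were lower, beside 19.0% over all genes. Npc2, which hands cholesterol out of the lysosome, had 81.1 and 73 CPM in primed_4d, 126 and 113 CPM in rosette_LIM and 173 and 149 CPM in LIF_2i, and no groups overlapped. It was lower than in LIF_2i in primed_4d (log2 fold change -1.06 ± 0.12, edgeR adjusted p = 5.69e-06) and in rosette_LIM (-0.42 ± 0.11, edgeR adjusted p = 0.0403). Its partner Npc1 passed between primed_4d and rosette_LIM (-0.49 ± 0.17, edgeR adjusted p = 0.0373). Scap, Insig2, Mbtps1 and Mbtps2, the proteins that retain, escort and cut SREBP, did not pass in any comparison, with log2 fold changes between -0.19 and 0.33.

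Of 8 genes of sterol efflux and esterification, 5 had counts enough for the test. In primed_4d against LIF_2i 1 of the 5 was higher and 2 were lower, beside 18.3% and 19.6% over all genes. In primed_4d Soat1, which esterifies cholesterol for storage, had 20.5 and 22.7 CPM, against 5.42 and 2.82 CPM in LIF_2i (log2 fold change 2.41 ± 0.29, edgeR adjusted p = 1.47e-05). Rosette_LIM stood near LIF_2i, at 5.91 and 6.04 CPM. The efflux pump Abca1 had 6.83 and 9.08 CPM in primed_4d, 26.1 and 25.7 CPM in rosette_LIM and 8.85 CPM (R1) and 31.9 CPM (IB10) in LIF_2i. Its LIF_2i libraries differed and overlapped with primed_4d, so its call against LIF_2i (-1.27 ± 0.36, edgeR adjusted p = 0.0113) is less even than that against rosette_LIM (-1.77 ± 0.36, edgeR adjusted p = 0.00135). The related pump Abcg1 was lower in primed_4d than in LIF_2i (-0.87 ± 0.30, edgeR adjusted p = 0.0331). In rosette_LIM against LIF_2i 0 of these 5 passed in edgeR, DESeq2 or limma, beside 5.52% of all genes called in edgeR. That count was near the background, and 0 of the 5 had an unadjusted p under 0.05 in edgeR.

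Among 12 tested genes of fatty acid supply, elongation and activation outside the 30, 0 passed in rosette_LIM against LIF_2i in edgeR, DESeq2 or limma. Over all genes 5.52% were called in edgeR, so that count was near the background. Of the 12, 3 (Acss2, Elovl5 and Hsd17b12) had an unadjusted p under 0.05 in edgeR. In primed_4d against LIF_2i 2 of the 12 were higher and 2 lower, shares near the 18.3% and 19.6% over all genes. Mid1ip1, an activator of acetyl-CoA carboxylase, had 74.7 and 70.2 CPM in primed_4d, against 32 and 32.8 CPM in LIF_2i (log2 fold change 1.16 ± 0.14, edgeR adjusted p = 1.68e-05). Acsl4, which activates polyunsaturated fatty acids, had 78.3 and 90.2 CPM in primed_4d, against 27.8 and 34.7 CPM in LIF_2i (1.43 ± 0.14, edgeR adjusted p = 1.76e-06). The lower ones were Me1, malic enzyme, a source of NADPH for synthesis (-0.89 ± 0.13, edgeR adjusted p = 0.000113), and Acss2, which makes acetyl-CoA from acetate (-0.66 ± 0.23, edgeR adjusted p = 0.0357). The median of the list in primed_4d against LIF_2i was -0.01. Between primed_4d and rosette_LIM 4 of the 12 were higher and 3 lower, beside 17.1% and 19.0% over all genes. The log2 fold changes were 1.59 for Acsl4, 1.28 for Mid1ip1, 0.78 for Acacb and 0.40 for Hsd17b12. They were -1.25 for Acss2, -0.68 for Me1 and -0.67 for Elovl5. DESeq2 did not call Acacb or Hsd17b12.

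Fatty acid oxidation is the opposite route. In rosette_LIM against LIF_2i 3 of 11 tested genes were higher, beside 3.18% over all genes: Acadm (log2 fold change 0.45), Slc25a20 (0.51) and Acaa2 (0.78), with edgeR adjusted p between 0.0107 and 0.0363. In primed_4d against LIF_2i 4 of 11 were higher and 4 lower, beside 18.3% and 19.6% over all genes. Cpt1a, which loads fatty acids onto carnitine, had 12.4 and 12.9 CPM in primed_4d, 50.2 and 49.3 CPM in rosette_LIM and 54 and 68 CPM in LIF_2i. Slc25a20, the carnitine carrier of the inner mitochondrial membrane, had 15.2 and 14.2 CPM in primed_4d, 117 and 110 CPM in rosette_LIM and 72.4 and 87 CPM in LIF_2i. Against LIF_2i the primed_4d log2 fold changes were -2.27 ± 0.17 for Cpt1a (edgeR adjusted p = 1.60e-07) and -2.44 ± 0.16 for Slc25a20 (edgeR adjusted p = 4.04e-08).

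Acaa2, a thiolase of the last step of a cycle, had a log2 fold change of -1.54 ± 0.19 in primed_4d over LIF_2i (edgeR adjusted p = 1.90e-05), and the dehydrogenase Acadm had -0.80 ± 0.12 (edgeR adjusted p = 0.000109). The genes higher in primed_4d were Acadl (0.86 ± 0.16, edgeR adjusted p = 0.000819), Etfdh (0.65), Hadhb (0.41) and Etfa (0.41), the last 3 with edgeR adjusted p between 0.0110 and 0.0208.

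Calls of these other pathway genes also depended on single libraries. In rosette_LIM against LIF_2i, the calls of Npc2, Acadm, Slc25a20, Acaa2 and the member Insig1 were lost without either LIF_2i library, with log2 fold changes over the omissions as low as 0.32 for Slc25a20, 0.37 for Acadm, 0.53 for Insig1 and 0.55 for Acaa2, and up to -0.40 for Npc2. Npc2, Acadm and Slc25a20 were also lost without the R1 rosette_LIM library, in DESeq2 and with cell line left out of the model, Npc2, Acadm and Acaa2 without the IB10 rosette_LIM library, Slc25a20 in limma, and Npc2 without wells of over 200000 UMIs. In primed_4d against LIF_2i, the calls of Ggps1 (down to 0.50), Hadhb (0.33), Etfa (0.34), Etfdh (0.49), Abcg1 (up to -0.75) and Acss2 (up to -0.48) were lost without either LIF_2i library. Ggps1, Hadhb and Abcg1 were also lost without either primed_4d library, and Etfa, Etfdh and Acss2 without the IB10 one. DESeq2 lost Ggps1, Hadhb, Etfdh, Abcg1 and Acss2, and leaving cell line out of the model lost Abcg1 and Acss2. Those of Lbr (down to 0.31) and Abca1 (up to -0.23) were lost without the IB10 LIF_2i library, and that of Abca1 also without the IB10 primed_4d library. Npc2, Soat1, Me1, Mid1ip1, Acsl4, Cpt1a, Acadm, Acadl, Slc25a20 and Acaa2 were called in primed_4d against LIF_2i in all 6 omissions. Between primed_4d and rosette_LIM, Insig1 was not called without the R1 primed_4d or the R1 rosette_LIM library, and Npc1 was called in 0 of the 6 omissions.

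**Figure D4:**
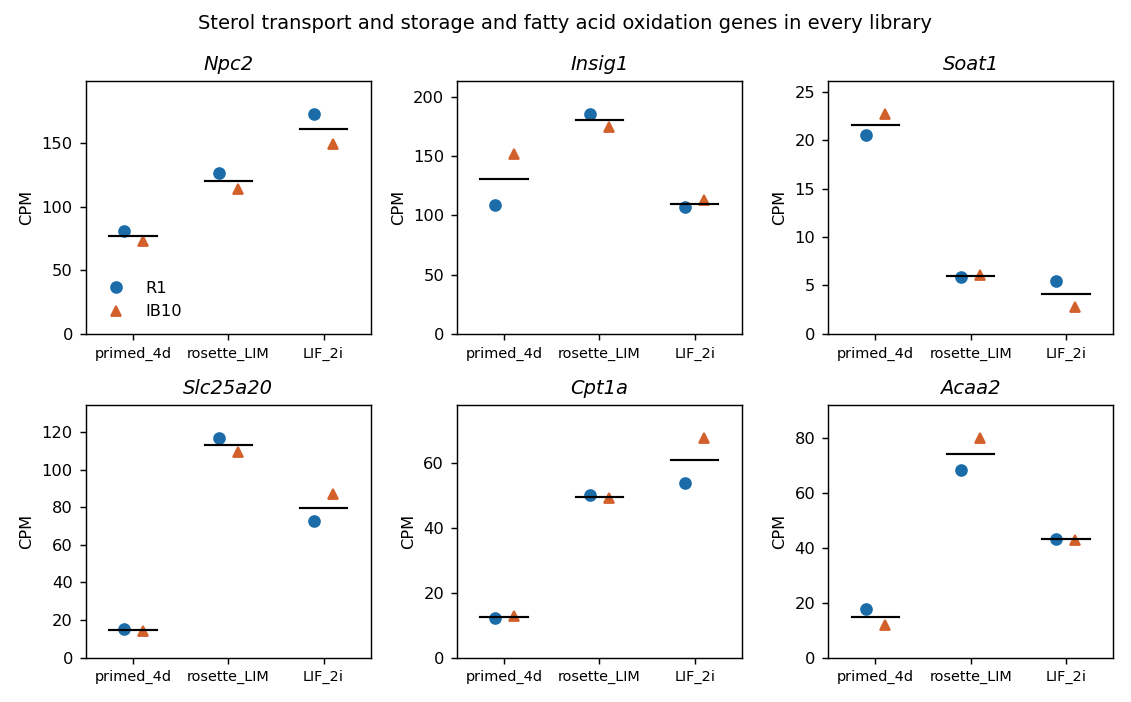
Level (CPM) of the sterol control, transport and storage genes Npc2, Insig1 and Soat1 and of the oxidation genes Slc25a20, Cpt1a and Acaa2 in the R1 and IB10 libraries of primed_4d, rosette_LIM and LIF_2i, with a line at the mean of the 2 libraries. Insig1 is highest in rosette_LIM, Npc2 is stepwise lower in rosette_LIM and primed_4d than in LIF_2i, Soat1 is highest in primed_4d, and Cpt1a is lowest in primed_4d (12.4 and 12.9 CPM).

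In single wells the branch difference was seen in the median well as well as in the sums. Wells of at least 6000 UMIs were thinned to 6000, which kept 104 (R1) and 169 (IB10) wells of primed_4d, 179 and 150 of rosette_LIM and 160 and 184 of LIF_2i. The median well then held 18 and 17 sterol UMIs in primed_4d, 19 and 17.5 in rosette_LIM and 11 and 12 in LIF_2i. The median of the fatty acid branch was 9.5 and 9 UMIs in primed_4d, 12 and 11 in rosette_LIM and 11 and 12 in LIF_2i. The lower quartile of sterol UMIs, 13.75 and 13 in primed_4d and 15 and 14 in rosette_LIM, lay above the LIF_2i medians in both lines. Every well kept had at least 1 sterol UMI and 1 fatty acid UMI. Unthinned, the sterol median of these wells was 30.2 and 27.7 per 10000 UMIs in primed_4d, 30.5 and 30.8 in rosette_LIM and 19.9 and 19.7 in LIF_2i. The fatty acid median was 15.6 and 14.8 in primed_4d, 19.9 and 18.8 in rosette_LIM and 20.0 and 19.7 in LIF_2i. With wells under 6000 UMIs included, the sterol medians were 27.3 and 27.3 in primed_4d, 30.2 and 30.2 in rosette_LIM and 19.9 and 19.6 in LIF_2i. The fatty acid medians were then 15.4 and 14.5, 19.6 and 18.5, and 20.0 and 19.7, in the same order.

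The spread of the sterol counts over wells, as variance over mean, was 2.50 and 3.03 in primed_4d, 2.26 and 1.99 in rosette_LIM and 1.97 and 1.87 in LIF_2i. A Poisson count would give 1, so wells of every library differed by more than counting. For the same relative spread this measure grows with the mean, so it does not rank the conditions. The mean was 17.8 (R1) and 17.9 (IB10) in primed_4d, 19.2 and 18.5 in rosette_LIM, and 12.1 and 12.1 in LIF_2i. Over the wells of a library, sterol and fatty acid UMIs had a Spearman rho of 0.39 and 0.40 in primed_4d, 0.21 and 0.29 in rosette_LIM and 0.14 and 0.28 in LIF_2i. The thinned sterol count also followed the depth of the well before thinning in primed_4d, with rho of 0.26 and 0.32, against 0.06 and 0.13 in rosette_LIM and -0.05 and 0.12 in LIF_2i. The part of depth in the higher primed_4d correlations was not tested, and wells of 1 library are not replicates.

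**Figure D5:**
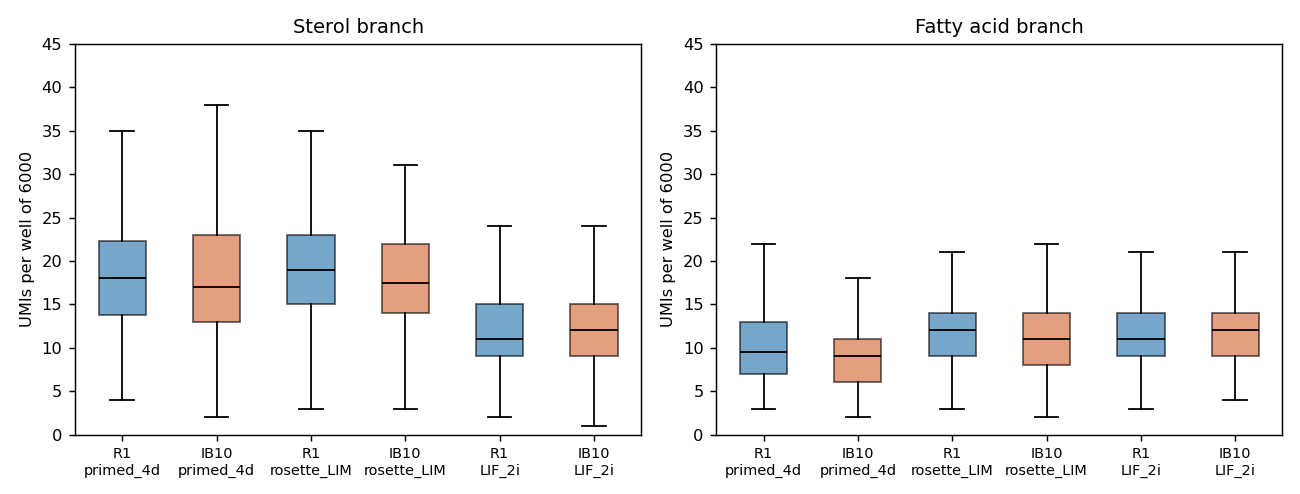
UMIs of the 18 sterol genes and of the 8 fatty acid genes per well thinned to 6000 UMIs, for each library. Boxes span the quartiles, lines are medians, and whiskers reach the farthest well within 1.5 box heights. The sterol medians are 17 to 19 in primed_4d and rosette_LIM and 11 to 12 in LIF_2i, and the fatty acid medians are 9 to 9.5 in primed_4d and 11 to 12 in the other conditions.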

How the data were processed

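Single-cell RNA of 6 libraries was analysed. The deposited table holds expected counts per gene and well, made by the authors from UMIs; all 1297 distinct values match, within 0.006, a whole UMI number corrected for repeats among 4096 identifiers (6 bases), with no scaling to depth. BWA and mm10/GRCm38 are named in the submitters' processing notes. The sources used here give neither the annotation used for counting nor which libraries shared a plate. The wells of each library (188) were summed and rounded to whole numbers, since cells are not replicates. The 91 ERCC rows (1.75% of counts) stayed out of library sizes.

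edgeR 4.0.16 (R 4.3.3) was used for TMM scaling, filterByExpr with a minimum count of 10 and the quasi-likelihood test on condition plus cell line over all 6 libraries, with Benjamini-Hochberg adjustment over 12098 genes and a threshold of 0.05. The 2 lines pair the libraries, since each line occurs in every condition; the correlation of their deviations from the condition means was 0.137, 0.178 and 0.0812 over the 3 pairs of conditions. The biological coefficient of variation was 0.103. CPM uses the TMM library sizes. The test was also run on simulated counts with no difference between the lines and with changes in rosette_LIM alone. Its outcome there is not given here and does not bear on the dependence on single libraries. DESeq2 1.42.0, limma 3.58.1, other scalings, filters and omissions of a library were alternatives. Coordinates are GRCm38, from GENCODE M21. Members and lists were chosen with earlier results of these data known. All 30 members were named; values per library are given for the members with the largest changes past the threshold, up to 8 per comparison, and for others that bear on the contrast of the branches. Of the other pathway genes, Nr1h3, Cyp46a1, Ch25h, Fads3 and Ppara were too low to be tested and Hacd3 was not matched. Acat2 with Acat3, Idi1 with Idi2, Fdps with its pseudogenes and the Scd genes can share reads. Some genes of the other pathway lists are not reported here.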

Additional observations from a re-analysis of the deposited data

Results flagged for a closer look

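Some members moved one way in R1 and the other way in IB10, each beyond the counting error (95% interval) of its 2 libraries. That error leaves out the spread between wells and between cultures. Some cleared it narrowly: in primed_4d against rosette_LIM the IB10 intervals of Pmvk and Sqle reached up to -0.0012 and -0.0083. The share of all genes that split this way is not given here. With 1 library per line and condition the difference between the lines was not tested. Values are the log2 change in R1 minus that in IB10. In primed_4d against rosette_LIM, Fasn was higher in R1 and lower in IB10 with a difference of 1.12, and so were Pmvk (0.89), Mvd (0.63), Srebf1 (0.61) and Sqle (0.34), while Idi1 was lower in R1 and higher in IB10 (-0.48). In primed_4d against LIF_2i, Fasn was higher in R1 and lower in IB10 (0.63). In rosette_LIM against LIF_2i, Fasn was lower in R1 and higher in IB10 (-0.48), and Scd1 was higher in R1 and lower in IB10 (0.36). Fasn was the member that split by line in all 3 comparisons.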

How the results depend on the processing

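Values are given first for rosette_LIM against LIF_2i (A), then primed_4d against LIF_2i (B), then primed_4d against rosette_LIM (C). Spike-in scaling in A gave 42 genes higher and 519 lower over all genes, 0 sterol genes and 0 regulators higher, a sterol median of 0.20 and a fatty acid median of -0.62. In B it gave 672 genes higher, 0 sterol genes higher, and medians of 0.034 and -0.81. In C it gave 897 genes higher and 1140 lower, 0 sterol genes higher and 1 lower, 0 fatty acid genes lower, and 0 regulators higher or lower. It reversed the sign of the log2 fold change of Sqle (-0.029), Dhcr7 (-0.075), Acadm (-0.10) and Slc25a20 (-0.032) in A, and of Idi1 (-0.026), Tm7sf2 (-0.087), Lbr (-0.12), Hadhb (-0.14) and Etfa (-0.15) in B. It also ended the calls of Npc2 and Acaa2 in A, and of Mid1ip1, Acadl, Ggps1 and Etfdh in B. The cause of the shift was not tested.

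Without the replicate block (cell line left out), A gave 162 genes higher and 119 lower, 9 sterol genes higher and 0 lower, and C gave 0 regulators higher. DESeq2 gave 166 higher and 106 lower with 0 sterol genes lower in A, 1273 and 1410 in B, and 1168 and 1452 with 0 regulators higher in C. limma gave 0 sterol genes lower in A, medians of 0.55 (sterol) and -0.20 (fatty acid) in B, and 2 sterol genes higher in C. With no filter on low counts, A gave 474 genes lower and B a sterol median of 0.56 and 1 regulator higher. Library totals alone gave a sterol median of 0.57 in B and 2 sterol genes higher in C. Wells of at least 6000 UMIs gave 1 regulator higher in B and 2 sterol genes higher in C, and leaving out wells of over 200000 UMIs (chosen after seeing the data) gave 1 regulator higher in B.

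Over the omissions of 1 library in turn, A gave 29 to 565 genes higher and 35 to 432 lower, 0 to 15 sterol genes higher and 0 to 1 lower, 0 to 1 fatty acid genes lower, 0 to 1 regulators higher, a sterol median of 0.55 to 0.74 and a fatty acid median of -0.20 to -0.076. B gave 1037 to 2689 higher and 1282 to 2788 lower, 9 to 16 sterol genes higher, 0 to 1 fatty acid genes higher and 1 to 3 lower, 0 to 2 regulators higher, and medians of 0.58 to 0.65 and -0.29 to -0.21. C gave 1340 to 1847 higher and 1720 to 2053 lower, 1 to 3 sterol genes higher and 2 to 4 lower, 0 to 2 fatty acid genes higher and 2 to 3 lower, 0 to 2 regulators higher and 0 to 1 lower, a sterol median of -0.062 to 0.16, which changed sign, and a fatty acid median of -0.16 to -0.0040. With 2 libraries per condition, a left-out library leaves a lone one that is assumed to vary like the others.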
